A study of Mus musculus with 10 samples.

Results

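Binding of Nanog and Sin3a was described at the loci of Pou5f1 and Sox2, which encode the transcription factors Oct4 and Sox2. The peaks were chosen by position alone, on mouse genome build mm9. They are the peaks that overlap chr17:35620000-35665000, a window of 45 kb around Pou5f1, or chr3:34450000-34720000, a window of 270 kb that holds Sox2 and its downstream control region. These windows held 39 of the 110170 peaks of the 4 deposited lists, 22 at Pou5f1 and 17 at Sox2. Merging peaks that share at least 1 base gave 21 sites of 45707 in all, 11 at Pou5f1 and 10 at Sox2.

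ChIP-seq measured binding in mouse pre-iPSCs, cells that have begun but not finished reprogramming, which came from neural stem cells of a female of strain 129/MF1 and were grown with serum and LIF. Stable lines were made by drug selection after transfection of PiggyBac vectors driven by the CAG promoter, and the labels do not say whether a line is a clone or a pool. The Nanog + Sin3a line carried both transgenes, Nanog with a FLAG tag and Sin3a. The Nanog line carried FLAG-tagged Nanog and empty vector, and the Sin3a line carried Sin3a and empty vector; the lines with FLAG-tagged Nanog are called the Nanog lines below. All lines shared an Oct4-GFP-IRES-puro reporter, and Oct4 is the product of Pou5f1, so the cells hold reporter sequence named for the locus studied here. FLAG was precipitated in both Nanog lines, and Sin3a in the Nanog + Sin3a and Sin3a lines. These 4 groups have 2 replicates each but only 1 peak list per group, so the spread between replicates is not known for any value, and no difference was tested. The values average over a cell population, so fewer occupied cells and weaker occupancy per cell cannot be told apart. The Sin3a antibody was raised against Sin3a itself, so added and endogenous Sin3a cannot be told apart either.

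Oct4, a POU-domain factor, and Sox2, an HMG-box factor, bind DNA together at composite sites and, with the homeodomain factor Nanog, sustain their own and each other's transcription in pluripotent cells. Sox2 is also expressed in neural stem cells, whereas Pou5f1 is silent there and is switched on again in reprogramming. Pou5f1 is controlled by a promoter and by a proximal and a distal enhancer upstream of its start. Sox2 is controlled by elements next to the gene and by a distant cluster of enhancers downstream, the Sox2 control region, which is used in pluripotent cells. Sin3a is the scaffold of a co-repressor complex that carries histone deacetylases and is often found at promoters of active genes.

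The sequences before both gene starts are shown because peaks lay at or near these starts. They come from RefSeq on build GRCm38.p6, in which both genes were matched by symbol, and each covers the 250 bases before the start on the plus strand. Capitals mark matches on either strand to 1 of 4 short motifs: ATGCAAA (the POU core), CATTGT (the SOX core), TAATGG (a homeodomain core) and GGGCGG (the GC box). The peaks are on mm9, and no position was carried from one build to the other.
Pou5f1, chr17:35505782-35506031: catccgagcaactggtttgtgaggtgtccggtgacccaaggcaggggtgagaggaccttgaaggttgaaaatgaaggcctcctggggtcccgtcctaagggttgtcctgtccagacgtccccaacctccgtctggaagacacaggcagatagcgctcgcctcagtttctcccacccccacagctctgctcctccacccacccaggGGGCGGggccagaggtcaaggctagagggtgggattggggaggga
Sox2, chr3:34649745-34649994: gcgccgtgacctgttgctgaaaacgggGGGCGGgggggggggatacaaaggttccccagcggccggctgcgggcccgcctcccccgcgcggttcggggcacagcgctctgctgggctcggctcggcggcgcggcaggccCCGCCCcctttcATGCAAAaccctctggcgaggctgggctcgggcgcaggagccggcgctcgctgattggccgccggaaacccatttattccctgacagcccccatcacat

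The Sox2 sequence held 1 POU core, which began 99 bases before the start, and 2 GC boxes, which began 223 and 111 bases before it, while the Pou5f1 sequence held 1 GC box, 45 bases before its start, and no POU core. No matches overlapped, and neither sequence held the SOX or the homeodomain core. Over the same 250 bases of all 32851 promoters of the table, the POU core occurred in 4.12%, the SOX core in 10.7%, the homeodomain core in 6.57% and the GC box in 32.7%. The Sox2 sequence was richer in CpG, with 27 CpG dinucleotides and 72.0% G and C, than the Pou5f1 sequence with 8 and 62.0%, where the medians over all promoters were 6 and 52.4%. A match is a run of letters and not a measured site.

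Peak strength is given below as the authors' fold enrichment at the summit, as the −log10 of the authors' adjusted p-value (−log10 q), and as the rank of that −log10 q within its own list. Unscaled ChIP fragments at the summit, and the control level there, were worked back from its fold and p-value, and a 95% Poisson interval covers counting error only. The weakest peaks with control at the genome-wide level held 20 fragments for FLAG in the Nanog + Sin3a line, 18 for FLAG in the Nanog line, and, for Sin3a, 20 with both transgenes and 23 in the Sin3a line. A site without a peak in a list may still have held fragments, up to about these numbers where control was at the genome-wide level and more where it was higher. Distances are from gene starts at about 35643000 (Pou5f1) and 34548900 (Sox2), which are rounded to 100 bases, and both genes run toward higher coordinates.

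FLAG-Nanog was strongest at Pou5f1 at a site 2.0 kb upstream of the start, and neither Sin3a list had a peak there. The site spanned 35640764-35641345. In the Nanog + Sin3a line its summit at 35641018 reached a fold of 7.79 at rank 392 of 36286 (−log10 q 87.4), and in the Nanog line its summit at 35641006 reached a fold of 11.1 at rank 91 of 38485 (−log10 q 145). It held 233 fragments in the Nanog + Sin3a line (interval 204 to 265) and 255 in the Nanog line (225 to 288), more than any other summit of either window. By number of fragments the summit ranked 39th in the list of the Nanog + Sin3a line and 15th in that of the Nanog line, but by fold it ranked 5376th and 2165th. The files do not annotate the enhancers of Pou5f1, so the summit is given by its position and not by the name of an enhancer.

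The fold divides the fragments by the control. At this summit the control was 21.0 tags in the FLAG list of the Nanog + Sin3a line and 19 tags in that of the Nanog line. The genome-wide levels of these lists were 4.76 and 4.68 tags. The input and IgG samples are labelled without a line, so control values belong to the peak lists and not to the lines.

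**Figure D1:**
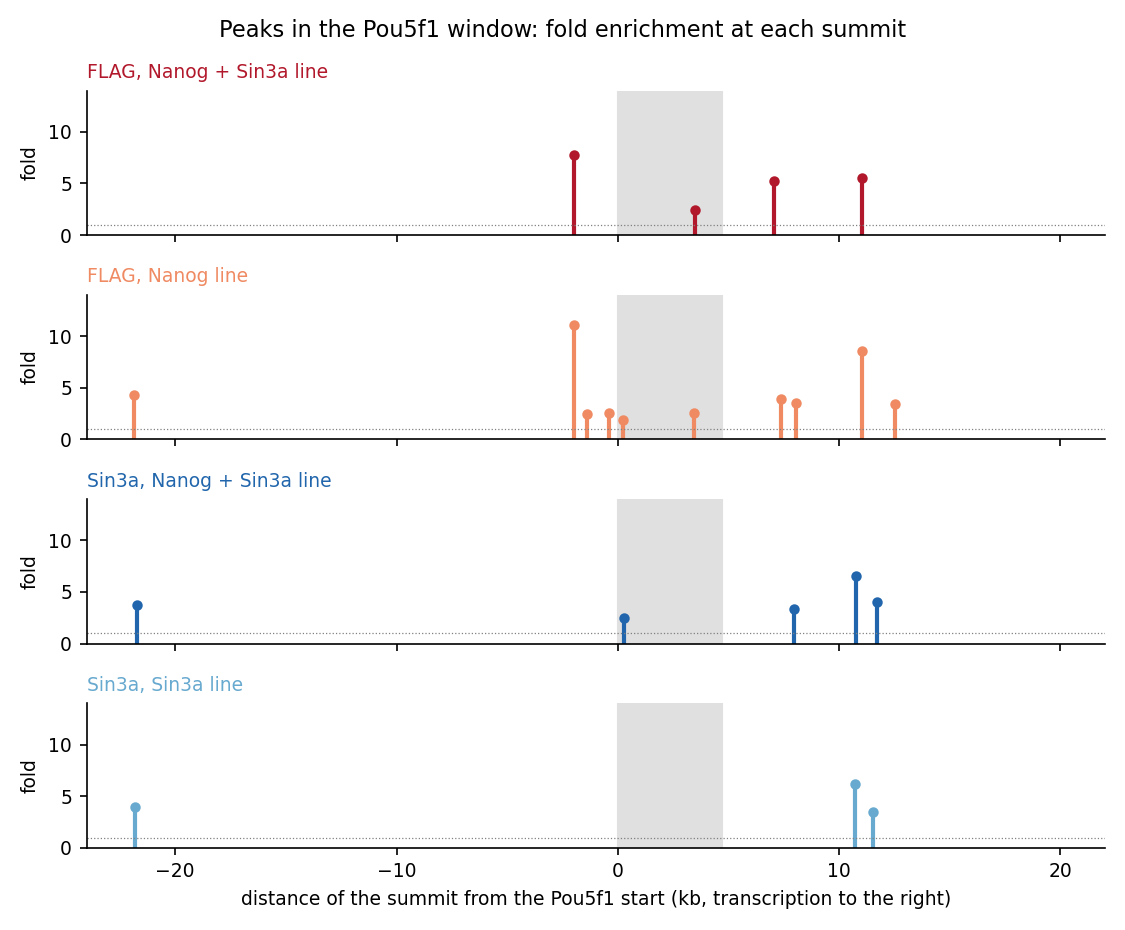
Fold enrichment at each peak summit (vertical axis, a ratio to expected background, with 1 marked by a dotted line) against distance from the Pou5f1 start in kb, in 1 panel per peak list; the grey band is the gene. FLAG in the Nanog line had 10 peaks, with the highest fold of 11.1 at 2.0 kb upstream, and Sin3a in the Sin3a line had 3 peaks, none between that site and the gene end.

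In the Nanog line, 3 weak FLAG peaks followed between this site and the first bases of the Pou5f1 gene. They had summits 1.4 kb upstream (35641587, fold 2.47, rank 31594), 0.4 kb upstream (35642609, fold 2.51, rank 34278) and 0.2 kb downstream of the start (35643212, fold 1.90, rank 38247 of 38485). None of these had a counterpart in the FLAG list of the Nanog + Sin3a line. The peak next to the start was among the weakest of its list, with a −log10 q of 1.95 and 47 fragments (34.5 to 62.5) over a control of 21.0 tags.

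Sin3a in the Nanog + Sin3a line had a peak at the same place, 0.3 kb downstream of the start at 35643265, and Sin3a in the Sin3a line had none. Its fold was 2.47 and its −log10 q 5.59, which placed it at rank 13290 of 18231. It held 66 fragments (51 to 84), rank 1856 in the list by fragments, over a control of 20.0 tags where the genome-wide level of the list was 5.05. The Nanog + Sin3a line, in which both proteins were precipitated, had no FLAG peak there. With control this high a summit of 47 FLAG fragments in the Nanog line only just passed the threshold, and that peak is lost at a −log10 q of 5, so a missing peak at the Pou5f1 start does not show that a protein was absent.

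Inside the gene, 3.4 kb from the start, FLAG had a peak in both Nanog lines. Its summit was at 35646472 in the Nanog + Sin3a line, with a fold of 2.41, 81 fragments (64.3 to 101) and rank 24305, and at 35646434 in the Nanog line, with a fold of 2.58, 82 fragments (65.2 to 102) and rank 19337. The control there was the highest of any site in the windows, at 24.0 tags in the FLAG list of the Nanog + Sin3a line and 27.0 tags in that of the Nanog line. Many fragments and a low fold thus went together at this site.

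Control, which is known at peak summits only, was raised at the 5 sites from 2.0 kb upstream to 3.4 kb downstream of the Pou5f1 start, and it reached 2 times the genome-wide level at no Sox2 peak. All 8 peaks of these sites had a control of at least 2 times the genome-wide level of their list, from 2.90 to 5.76 times. Of the Pou5f1 peaks this was 2 of 4 for FLAG in the Nanog + Sin3a line, 5 of 10 for FLAG in the Nanog line, and for Sin3a it was 1 of 5 with both transgenes and 0 of 3 in the Sin3a line. Over whole lists, in that order, it held for 1.39%, 1.5%, 0.878% and 1.44% of the peaks. A control of at least 4 times occurred at 2 of 4, 3 of 10, 0 of 5 and 0 of 3 Pou5f1 peaks, and over the lists at 0.0772%, 0.135%, 0.0932% and 0.0524% of peaks. At the FLAG site 7 kb downstream the control was 1.37 times the genome-wide level in the list of the Nanog + Sin3a line and 1.71 times in that of the Nanog line. At 11 kb the control was 1.00 times in all 4 lists. It was at most 1.08 times in the 3 lists with a peak 21.9 kb upstream, and between 1.00 and 1.49 times at all 17 Sox2 peaks. The working back admitted no control below the genome-wide level, so 1.00 is the lowest value it could give. The sources used here do not say whether input or IgG served as control. The series has 1 sample of each, so lists may share a control, and the 8 raised values may repeat the same readings. The reporter present in every line bears the name of this locus, and its part in the control level was not tested.

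**Figure D2:**
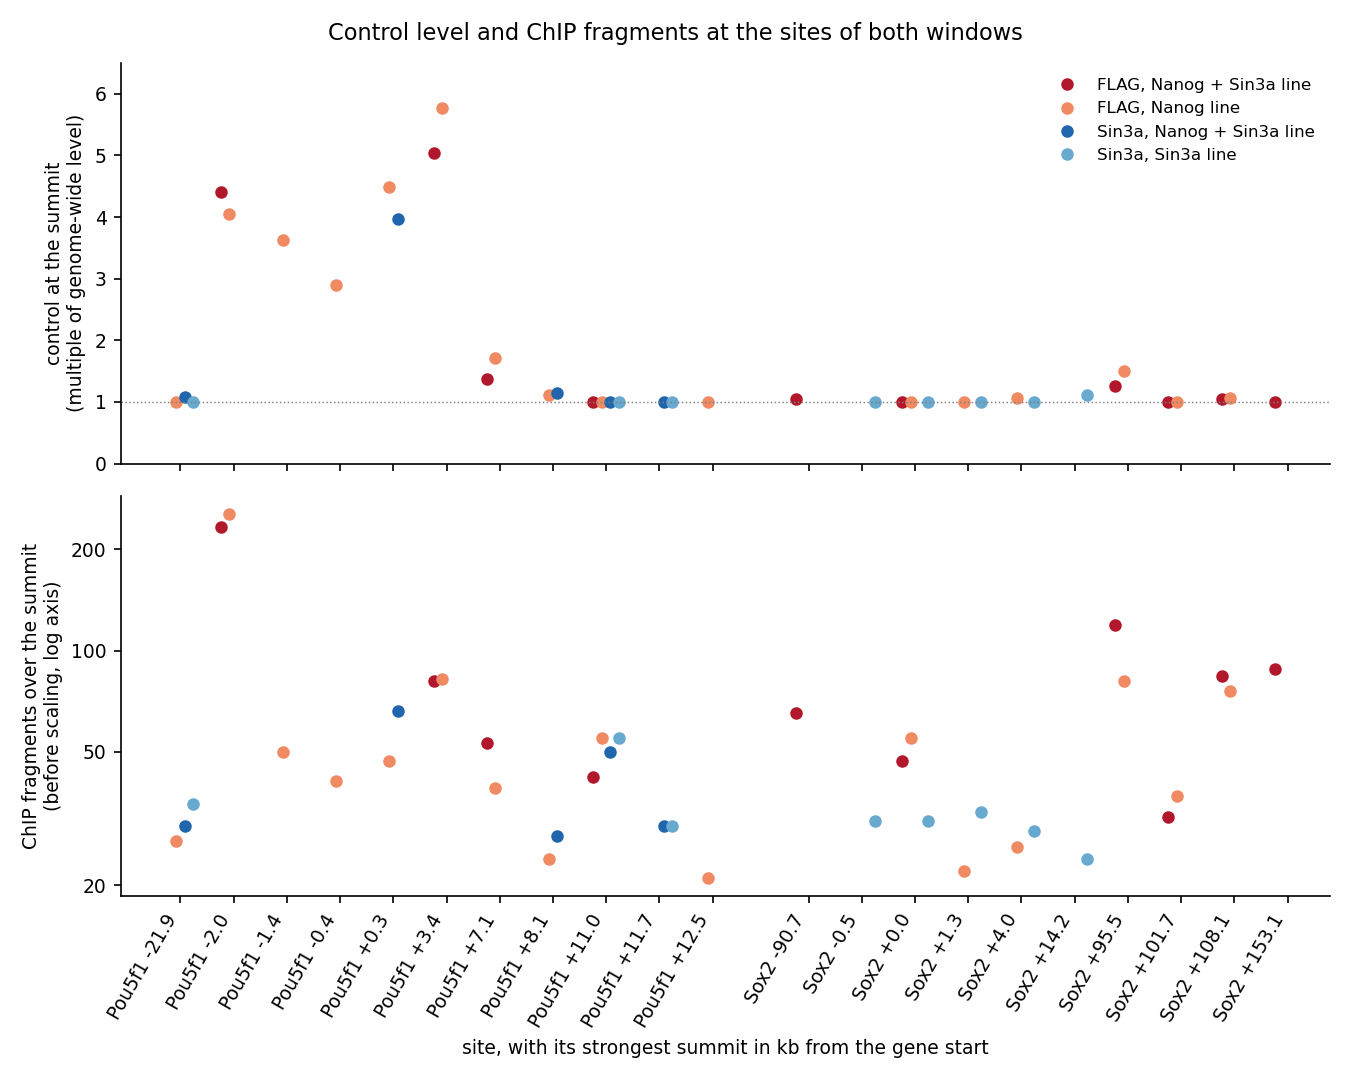
Control level at each summit as a multiple of the genome-wide level of its list (upper panel) and ChIP fragments over the summit before scaling (lower panel, log axis), for the 21 sites in order along each locus, with 1 point for each list that has a peak. Control lies between 2.90 and 5.76 at the Pou5f1 sites from 2.0 kb upstream to 3.4 kb downstream, and the 233 and 255 FLAG fragments 2.0 kb upstream are the highest points of the lower panel.

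Downstream of Pou5f1 lie Tcf19, Cchcr1 and Psors1c2 in that order, by the RefSeq table, and the single site of both windows that all 4 lists shared was on that side, 11.0 kb from the Pou5f1 start (35652977-35654150). FLAG had a fold of 5.50, 42 fragments (30.3 to 56.8) and rank 14022 in the Nanog + Sin3a line, against 8.57, 55 fragments (41.4 to 71.6) and rank 5562 in the Nanog line. Sin3a had a fold of 6.55 and 50 fragments (37.1 to 65.9) in the Nanog + Sin3a line, against 6.16 and 55 fragments (41.4 to 71.6) in the Sin3a line. By fold and by −log10 q these were the strongest Sin3a peaks of either window, at rank 4263 of 18231 and rank 5229 of 17168. The FLAG summits, at 35654014 in the Nanog + Sin3a line and 35654016 in the Nanog line, lay 2 bases apart. They stood 266 and 293 bases downstream of the Sin3a summits at 35653748 in the Nanog + Sin3a line and 35653723 in the Sin3a line. The medians over all FLAG and Sin3a pairs were 82 bases in the Nanog + Sin3a line and 75 bases across the single-transgene lines. The distances of 266 and 293 bases lay at percentiles 86.6 and 90.3 of these pairs. In this wide site the called summits thus stood about as far apart in both comparisons. A single called summit in a wide peak does not fix where a protein bound.

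A second Sin3a site followed 11.7 kb from the Pou5f1 start (35654415-35654781), with 30 fragments in each Sin3a list and no FLAG peak. Its fold was 3.99 in the Nanog + Sin3a line (summit 35654711, rank 12028) and 3.43 in the Sin3a line (summit 35654517, rank 14230). FLAG sites in both Nanog lines included one at 35649974-35650543, 7 kb downstream of the start. Its fold was 5.28 at rank 11905 in the Nanog + Sin3a line (53 fragments, 39.7 to 69.3) and 3.87 at rank 21823 in the Nanog line (39 fragments, 27.7 to 53.3). The summits, at 35650073 in the Nanog + Sin3a line and 35650393 in the Nanog line, lay 320 bases apart. That distance lay at percentile 97.8 of all shared FLAG sites.

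The remaining Pou5f1 sites were weak. At 35650846-35651154, 8 kb downstream, FLAG in the Nanog line had a fold of 3.49 (summit 35651071, rank 34061) and Sin3a in the Nanog + Sin3a line a fold of 3.34 (summit 35650943, rank 16019). At 35655419-35655608, 12.5 kb downstream, FLAG had a peak in the Nanog line alone, with a fold of 3.38 and 21 fragments (summit 35655507, rank 35073). At 35621097-35621409, 21.9 kb upstream, FLAG in the Nanog line had a fold of 4.28 (summit 35621138, rank 25800). Sin3a there had a fold of 3.74 in the Nanog + Sin3a line (summit 35621290, rank 13260) and 3.96 in the Sin3a line (summit 35621196, rank 12303). No FLAG peak was called at this upstream site in the Nanog + Sin3a line.

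FLAG-Nanog at Sox2 was strongest far downstream of the gene, where no Sin3a peak was called in either list. The Sox2 window was drawn to include the downstream control region. The files do not annotate its edges, so which of these sites lie within it was not examined. A site 95.5 kb from the start (34644119-34644585) had its summit at 34644401 in the Nanog + Sin3a line and 34644380 in the Nanog line. It had a fold of 12.6, 119 fragments (98.6 to 142) and rank 836 in the Nanog + Sin3a line, and a fold of 8.91, 81 fragments (64.3 to 101) and rank 2628 in the Nanog line. A site 108.1 kb from the start (34656819-34657179), with summits at 34656997 in the Nanog + Sin3a line and 34656993 in the Nanog line, had a fold of 10.4, 84 fragments (67 to 104) and rank 2284 in the Nanog + Sin3a line, and a fold of 11.2, 76 fragments (59.9 to 95.1) and rank 2237 in the Nanog line. By rank these 4 peaks stood within the top 2.30% to 6.83% of their lists. A weaker site between them, 101.7 kb from the start (34650448-34650767), had folds of 4.23 in the Nanog + Sin3a line (summit 34650690, 32 fragments, rank 23504) and 5.82 in the Nanog line (summit 34650582, 37 fragments, rank 13471). All 3 sites were shared by the Nanog lines, and their summits lay 21, 108 and 4 bases apart in the order along the chromosome.

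**Figure D3:**
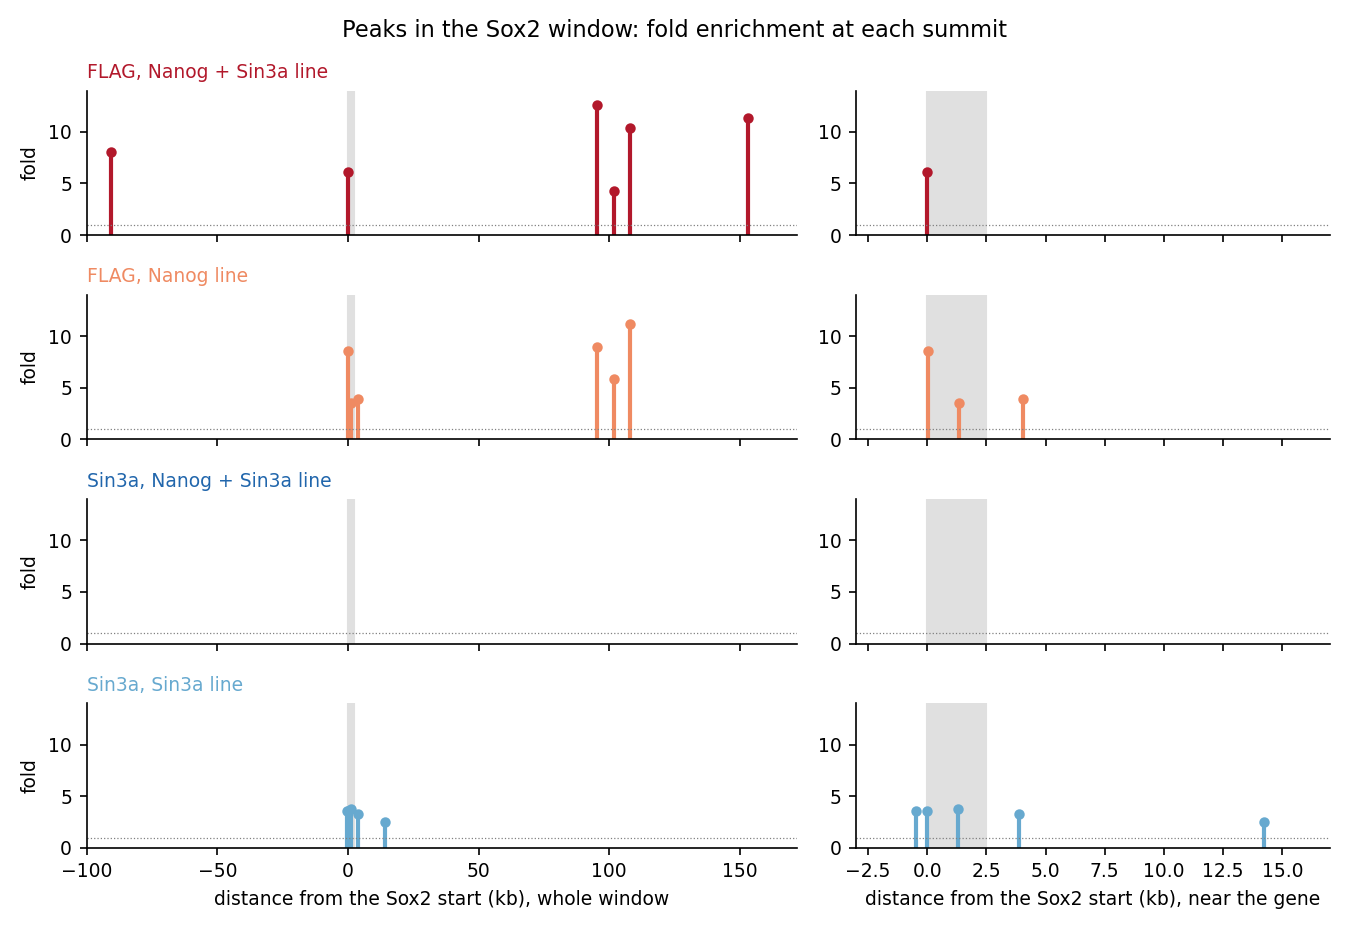
Fold enrichment at each peak summit against distance from the Sox2 start in kb, in 1 row per peak list, for the whole window (left) and near the gene (right); the grey band is the gene and the dotted line marks a fold of 1. FLAG peaks stand 95.5 to 108.1 kb downstream in both Nanog lines, the 5 Sin3a peaks of the Sin3a line stand near the gene, and the Sin3a row of the Nanog + Sin3a line is empty.

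At the Sox2 start itself FLAG had a peak in both Nanog lines and Sin3a had one in the Sin3a line (34548745-34549179). FLAG had a fold of 6.14, 47 fragments (34.5 to 62.5) and rank 11008 in the Nanog + Sin3a line, against 8.57, 55 fragments (41.4 to 71.6) and rank 5562 in the Nanog line. Sin3a in the Sin3a line had a fold of 3.54, 31 fragments (21.1 to 44) and rank 14230. The summits were at 34548896, 34548922 and 34548912 in that order, so all 3 lay within 26 bases of each other and at the gene start as far as its rounded position allows. Fold for FLAG at the Sox2 start and at the 11.0 kb Pou5f1 site was the same in the Nanog line, since both summits held 55 fragments over genome-wide control.

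Sin3a in the Sin3a line had 4 further weak peaks around Sox2, and Sin3a in the Nanog + Sin3a line had no peak anywhere in the window. They lay 0.5 kb upstream of the start (summit 34548422, fold 3.54, rank 14230) and 1.3 kb downstream, inside the gene (34550184, fold 3.76, rank 12567). Past the gene they lay 3.9 kb (34552770, fold 3.32, rank 15163) and 14.2 kb from the start (34563116, fold 2.54, rank 17148 of 17168). The 5 Sin3a peaks held 24 to 33 fragments, where the weakest peaks of the list had 23 and its median was 46. FLAG in the Nanog line overlapped the Sin3a peaks 1.3 and 3.9 kb from the start, with summits 83 and 173 bases away, at 34550267 (fold 3.53, rank 32473) and 34552943 (fold 3.93, rank 28242). FLAG in the Nanog + Sin3a line had no peak at either. Near the Sox2 gene the Nanog + Sin3a line thus had 1 FLAG peak, at the start, against 3 FLAG peaks in the Nanog line.

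Peaks without a counterpart were set beside peaks of like strength in the whole lists. None of the 5 Sox2 Sin3a peaks of the Sin3a line had a counterpart in the Nanog + Sin3a line, against 3 of 3 at Pou5f1, where 84.2% of the whole list did. In the other direction, 3 of the 5 Pou5f1 Sin3a peaks of the Nanog + Sin3a line had a counterpart in the Sin3a line, where 80.4% of the list did, and in the range of the other 2 peaks 55.2% did. Within the −log10 q range of the Sox2 peaks, 1.37 to 5.70, the share over the list was 58.7%. For FLAG, 2 of the 6 Sox2 peaks and 6 of the 10 Pou5f1 peaks of the Nanog line had no counterpart in the Nanog + Sin3a line, where 74.2% of the list had one. All 8 were weak, with a −log10 q between 1.95 and 7.01. In the ranges set by these peaks, 44.4% (Pou5f1) and 45.4% (Sox2) of the list had a counterpart. Of 270 kb windows laid end to end over the genome, 57.7% held no Sin3a peak of the Nanog + Sin3a line. These ranges were chosen after the values were seen, and the shares are descriptions of the lists.

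FLAG peaks found in the Nanog + Sin3a line and not in the Nanog line were of another kind, strong and far from Sox2. One lay 153.1 kb downstream of the start (34701792-34702194, summit 34701959), with a fold of 11.3 (−log10 q 44.9), 88 fragments (70.6 to 108) and rank 1826 of 36286. The other lay 90.7 kb upstream (34458077-34458374, summit 34458229), with a fold of 8.09 (−log10 q 26.2), 65 fragments (50.2 to 82.8) and rank 5032. Control at both was near the genome-wide level, at 1.00 and 1.05 times. In all, 8 of the 10 FLAG peaks of the Nanog + Sin3a line in the windows were shared with the Nanog line, 4 of 4 at Pou5f1 and 4 of 6 at Sox2, where 79.7% of the list was shared. Within the −log10 q range of the Sox2 peaks without a counterpart, 26.2 to 44.9, 1 of 3 Sox2 peaks was shared, where 97.0% of that list was. Of the 5615 peaks of the list whose −log10 q reached 25, 155 (2.76%) had no counterpart. These Sox2 peaks ranked 27th and 124th among the 155. The range was set by these peaks after they were seen, and the threshold of 25 lies just below the weaker of them. The shares therefore describe the list and test nothing. By the RefSeq table Sox2 lies within the long noncoding RNA gene Sox2ot, and whether either peak falls inside that gene on mm9 was not examined.

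FLAG strength at the sites of both Nanog lines was compared as the ratio of folds, Nanog + Sin3a over Nanog. At 6 of 8 shared sites the fold was lower in the Nanog + Sin3a line, where 64.7% of the 25899 shared FLAG sites with 1 peak in each list were lower and the median ratio was 0.912. At the Pou5f1 site 2.0 kb upstream the ratio was 0.701, which lay at percentile 12.3 of shared sites, and the ratio of scaled fragments was 0.770 (exact interval 0.642 to 0.924). At the 11.0 kb site downstream of Pou5f1 the ratio of folds was 0.642, at percentile 6.15, and that of scaled fragments 0.644 (0.420 to 0.980). At the Sox2 start these ratios were 0.716 and 0.720 (0.477 to 1.08). The interval lay below 1 at both of these Pou5f1 sites and included 1 at the other 6 shared sites. It lay below 1 at 5.05% and above 1 at 4.55% of all shared FLAG sites. The median ratio of scaled fragments over all shared FLAG sites was 0.920, and the intervals of both Pou5f1 sites included it. The intervals thus do not separate either site from the general shift between the lists, and they do not show that either site followed it. Such an interval compares the 2 peak lists and not the lines, since replicates are not separate.

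Sites with the higher fold in the Nanog + Sin3a line were those 7 kb downstream of Pou5f1, with a ratio of 1.36, and 95.5 kb downstream of Sox2, with a ratio of 1.41. By scaled fragments these ratios were 1.15 (0.743 to 1.78) and 1.24 (0.926 to 1.66). The Sox2 sites at 108.1 and 101.7 kb had ratios of folds of 0.933 and 0.727, and the site inside Pou5f1 had 0.935. The downstream Sox2 sites therefore did not move in 1 direction. No ratio lay outside the range of −0.67 to 0.61 on the log2 scale that holds the middle 90% of shared sites.

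**Figure D4:**
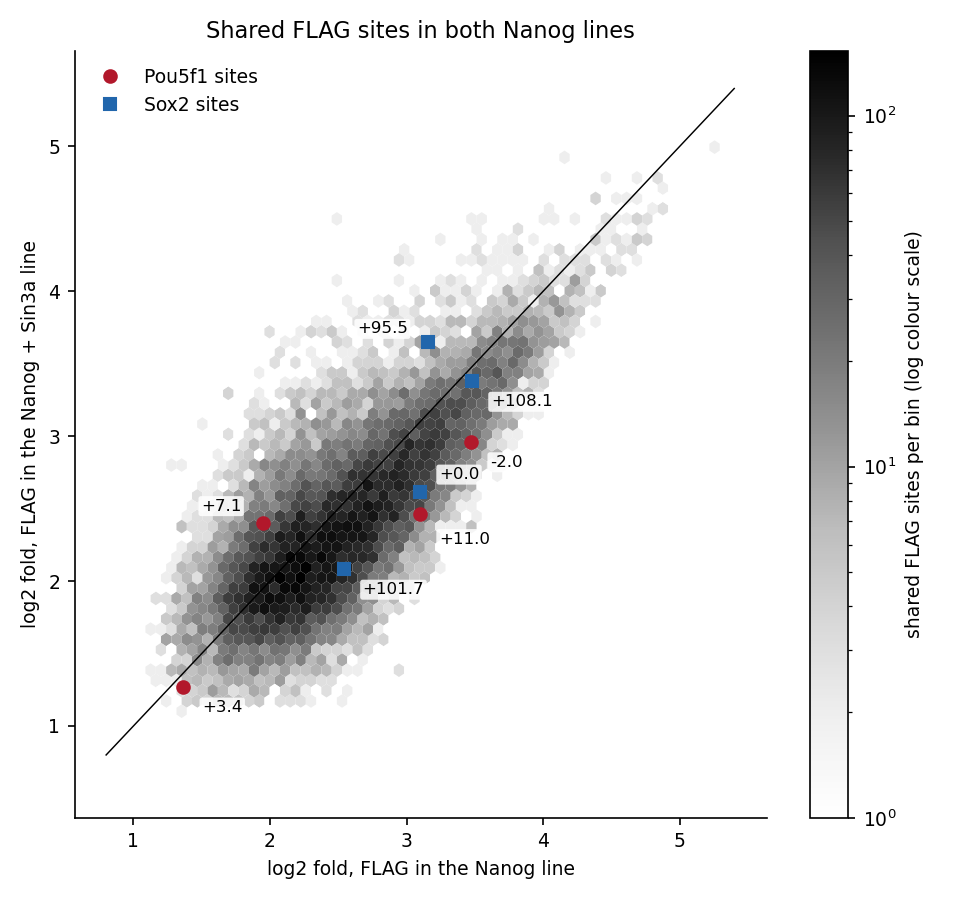
Log2 fold of FLAG in the Nanog + Sin3a line (vertical axis) against the Nanog line (horizontal axis) at the 25899 shared sites with 1 peak in each list (grey hexagons, log colour scale), with the 4 Pou5f1 sites as circles and the 4 Sox2 sites as squares, labelled by kb from the gene start. The diagonal marks equal fold; 6 of the 8 sites lie below it, and the 7.1 kb Pou5f1 site and the 95.5 kb Sox2 site lie above it.

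Sin3a at the sites shared by both Sin3a lists, all at Pou5f1, had ratios near 1. The ratios of folds, Nanog + Sin3a over Sin3a, were 0.943 at the site 21.9 kb upstream, 1.06 at the 11.0 kb site and 1.16 at the 11.7 kb site, with a median of 0.998 over 12851 shared sites. By scaled fragments the ratios were 0.945 (0.560 to 1.58), 1.00 (0.669 to 1.5) and 1.1 (0.642 to 1.89). Fold was lower in the Nanog + Sin3a line at 1 of 3 sites, against 50.4% of all shared Sin3a sites, and no interval excluded 1, where 4.59% of all lay below 1 and 0.833% above it. The intervals reach down to 0.560 and up to 1.89, so changes within them were not detectable at this depth.

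Peaks of FLAG and of Sin3a, from any lines, shared 7 of the 21 sites, 4 of 11 at Pou5f1 and 3 of 10 at Sox2, a share near the 37.2% of all merged sites. In the Nanog + Sin3a line, 1 of 4 FLAG peaks at Pou5f1 and 0 of 6 at Sox2 overlapped a Sin3a peak of that line, where 42.2% of the FLAG list did. Sin3a in that line had no peak in the Sox2 window, so 0 of 6 was the only possible count there. Across the single-transgene lines, 2 of 10 FLAG peaks at Pou5f1 and 3 of 6 at Sox2 overlapped a Sin3a peak, where 41.8% did. From the Sin3a side, 1 of 5 Pou5f1 peaks in the Nanog + Sin3a line lay at a FLAG peak, where 80.3% of the list did. The 4 others were weak, at ranks 12028 to 16019 of 18231. Across the single-transgene lines, 2 of 3 Sin3a peaks at Pou5f1 and 3 of 5 at Sox2 lay at a FLAG peak, where 88.5% did. These shares are of whole lists, and shares for Sin3a peaks of like strength were not computed. The strongest FLAG sites by −log10 q, 2.0 kb upstream of Pou5f1 and 95.5, 108.1 and 153.1 kb downstream of Sox2, had no Sin3a peak in any list. The next strongest differed. The 11.0 kb Pou5f1 site and the Sox2 start had Sin3a peaks, and the site 90.7 kb upstream of Sox2 had none. The share of FLAG peaks of like strength without Sin3a was not computed. Control 2.0 kb upstream of Pou5f1 was 4.41 and 4.06 times genome-wide in the FLAG lists, so a missing Sin3a peak there does not show that Sin3a was absent.

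By combination of lists, 6 of the 21 sites had FLAG in both Nanog lines and no Sin3a, a class that made up 26.9% of all sites, and 1 site had all 4 lists, against 25.7% of all sites. At Pou5f1, 3 of 11 sites had FLAG of the Nanog line alone (16.0% of all sites), and 2 had it with Sin3a of the Nanog + Sin3a line only (1.01%). At Sox2, 2 of 10 had FLAG of the Nanog line with Sin3a of the Sin3a line only (0.774%). A further 2 had FLAG of the Nanog + Sin3a line alone (14.5%), and 2 had Sin3a of the Sin3a line alone (1.61%). Each other combination had 1 site. In the classes of 1.01% and 0.774% the FLAG peaks were weak, at ranks 28242 to 38247 of 38485. Class shares for sites of like strength were not computed.

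The Pou5f1 window held 22 peaks in 45 kb, where 45 kb windows laid end to end over the genome held 1.88 on average and 0.944% of 58569 windows held at least as many. Of these windows 67.9% held no peak, and a site with peaks in several lists counts once for each peak. With peaks of a −log10 q of at least 10 alone, the share of windows at least as dense was 3.6%. For single lists, the count at Pou5f1 was reached by 4.5% of windows for FLAG in the Nanog + Sin3a line (4 peaks) and 0.365% for FLAG in the Nanog line (10 peaks). For Sin3a it was reached by 1.0% in the Nanog + Sin3a line (5 peaks) and 3.17% in the Sin3a line (3 peaks). The 17 peaks of the Sox2 window were reached by 23.7% of 9771 windows of 270 kb, which held 11.3 on average and of which 35.5% held none. The Pou5f1 and Sox2 windows were drawn around these genes, so the densities are descriptions.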

How the data were processed

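The submitters' processing notes name the build mm9 and the tools SAMtools 0.1.19, Bowtie 1.0.0 and FastQC 0.10.1 without their roles. The peak caller and any pooling of replicates are named in no source used here. Each of 4 groups has 1 list. Samples of input and IgG were not analysed here, and no source used here says which of them served as control. The deposited lists hold a score (10 times the −log10 q, without decimals, in 100% of rows), the fold enrichment ratio at the summit, and its −log10 p and −log10 q, all the authors' own values.

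As the values show, the fold equals scaled fragments plus 1 over control plus 1 and the p-value is a Poisson tail, from which fragments and control were recovered, with exactly 1 solution for at least 99.98% of peaks per list. In the order FLAG (Nanog + Sin3a, Nanog) and Sin3a (Nanog + Sin3a, Sin3a), 1 fragment counted as 0.731, 0.868, 0.772 and 0.700, and median fragments were 39, 33, 38 and 46. Total reads were not given in the sources used here, and duplicates cannot be seen. The recovery was tested on data simulated with the same formula, so that test checks the working back and not the formula.

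Overlap means 1 shared base. Intervals of 95% are exact Poisson, and conditional for ratios. Window edges and gene positions are given values. No genome of mm9 was used, so other pluripotency genes were not counted. Every site was named, since there were at most 30. Members, lists and comparisons were chosen with earlier results of these data known. No p-value was computed. Scripts ran on SciPy 1.17.1, NumPy 2.4.6, Matplotlib 3.10.9 and pandas 2.3.3 under Python 3.11.15.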

Additional observations from a re-analysis of the deposited data

How the results depend on the processing

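No paired analysis was possible because the lists hold no values of single replicates, and leaving out a replicate was not run for the same reason. The 11 Pou5f1 sites became 7 and 3 at a −log10 q of at least 5 and 10, and 7 when peaks up to 500 bp apart were merged, and the 10 Sox2 sites became 6 at 10 or more. Stricter thresholds leave fewer peaks. At 10 or more, shared FLAG peaks numbered 5 in place of 8, shared Sin3a peaks 1 in place of 3, and FLAG and Sin3a peaks of the single-transgene lines at each other 1 in place of 5 (2 at 5 or more). With summits within 200 bp, the 1 overlap of FLAG and Sin3a in the Nanog + Sin3a line became 0. The share of windows at least as dense as Pou5f1 was 3.6% at 10 or more, against 0.944%. The count of FLAG sites lower in the Nanog + Sin3a line stayed at 6 under scaled fragments, −log10 q and site means. With summits within 200 bp it was 6 of 7, since the pair 7 kb downstream of Pou5f1 dropped out. Ranks moved by over 1.5 times for 4 of 39 peaks by fold and 9 by fragments, the 2.0 kb Pou5f1 site among both. Counts at other pluripotency genes were not run. Wider or narrower windows kept both site counts within 1.5 times.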
